A study of Homo sapiens with 6 samples.

Results

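Cellular iron handling was followed through 10 genes in 6 RNA libraries of SKOV3, a human ovarian carcinoma line. The genes encode the ferritin subunits (FTH1, FTL), the receptor, transporter and reductase of iron uptake (TFRC, SLC11A2, STEAP3), the exporter (SLC40A1), the iron regulatory proteins (ACO1, IREB2), the cargo receptor that brings ferritin to lysosomes (NCOA4) and the enzyme that breaks down heme (HMOX1). They were chosen by name from the 20030 gene symbols of the data. FTH1 was taken because it is the most abundant transcript and is highest in rhCCL20 replicate 3, so its values are a description and were not tested. Of the 10 members, 9 were above 0 and passed the filter on low values that left 10263 genes, and 8 were tested, while SLC40A1 was listed at 0 in all libraries. The cells were kept for 24 h with recombinant human CCL20 (rhCCL20), a chemokine that binds the receptor CCR6, dissolved in 5% trehalose, or with the 5% trehalose vehicle. Each group has 3 libraries, and trehalose, a disaccharide, was present in both. No dose of rhCCL20 is used here. Whether the replicates are separate cultures is not stated in the labels, so a p-value reflects only the spread among these libraries, which may be technical.

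Iron enters most cells bound to transferrin, through the transferrin receptor TFRC. In endosomes a STEAP reductase converts ferric to ferrous iron, which SLC11A2 carries into the cytosol. Iron that is not used is stored inside a shell of ferritin heavy (FTH1) and light (FTL) chains, is released again when NCOA4 takes ferritin to lysosomes, and leaves the cell through ferroportin (SLC40A1). The iron regulatory proteins IRP1 (ACO1) and IRP2 (IREB2) bind a hairpin in target mRNAs, the iron-responsive element, when cellular iron is low. Binding before the coding sequence blocks translation of ferritin and ferroportin mRNA, and binding after it protects TFRC mRNA from decay. Ferritin protein can therefore change with no change of its mRNA, and only mRNA was measured here.

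The elements are shown because this control acts through their letters and fold. Transcripts of GENCODE on GRCh38 were searched, on the transcript's own strand, for the loop letters CAGTGN, closed by 5 pairs of bases (G with T counted as a pair), with a C just before those pairs and at least 4 of the next 5 positions paired. Of 19684 protein-coding genes 17 (0.0864%) held a match in an untranslated region (UTR), 6 of them before and 11 after the coding sequence. Among the members 4 held a match, FTH1, FTL and SLC40A1 in the 5' UTR and TFRC in the 3' UTR, and 6 held none of this form, among them SLC11A2, for which an element of another form is described. Capitals mark the unpaired C and the loop, and T stands for U.
FTH1: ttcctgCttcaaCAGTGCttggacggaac
FTL: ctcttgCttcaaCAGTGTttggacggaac
SLC40A1: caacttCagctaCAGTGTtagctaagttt
TFRC element 1: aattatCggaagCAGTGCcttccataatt
TFRC element 2: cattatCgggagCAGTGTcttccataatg
TFRC element 3: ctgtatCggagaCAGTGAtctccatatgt
TFRC element 4: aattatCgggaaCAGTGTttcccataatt
These lie at chr11:61967574-61967602 on the minus strand for FTH1, chr19:48965335-48965363 on the plus strand for FTL, chr2:189580661-189580689 on the minus strand for SLC40A1, and, for TFRC on the minus strand, at chr3:196050979-196051007, chr3:196050575-196050603, chr3:196050510-196050538 and chr3:196050463-196050491. The FTH1 and FTL elements shared 26 of 29 bases. Counted from 1 at the 5' end, with the FTH1 base first, they differed by T1C, C4T and C18T, the last of which is the final base of the loop. A match describes these letters and says nothing of binding. Elements of another form were not searched for, so a member, TFRC included, can hold more than those shown.

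The genes lie apart in the genome (GRCh38, GENCODE). FTL spans chr19:48965301-48966878 on the plus strand and TFRC chr3:196027183-196082189 on the minus strand. SLC11A2 is at chr12:50979401-51028566 on the minus strand, and STEAP3 at chr2:119223831-119265652 on the plus strand, the chromosome that also holds SLC40A1 at chr2:189560579-189583758 on the minus strand. IREB2 is at chr15:78437431-78501456 and ACO1 at chr9:32384603-32454769, both on the plus strand. HMOX1 is at chr22:35380361-35394214 on the plus strand and NCOA4 at chr10:46005088-46030714 on the minus strand.

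Values are FPKM, fragments divided by transcript length and by the fragments mapped in that library, a scale on which levels of different genes can be compared. Summed FPKM lay between 302691 and 308488 with rhCCL20 and between 301805 and 310080 in vehicle. How many fragments lie behind a value is unknown. The steps between the lowest values gave a depth, relative to vehicle replicate 1, of 1.01 to 1.09 with rhCCL20 and of 0.943 to 1.00 in vehicle. Of 10 markers for an ovarian carcinoma line, 5 reached 1 FPKM in every library, among them the keratins KRT7, KRT8 and KRT18, while PAX8, WT1, MUC16, KRT19 and EPCAM stayed below 0.3 FPKM in every library, and the markers summed to 1276 to 1380 FPKM with rhCCL20 and 1374 to 1452 FPKM in vehicle. Of 12 myeloid markers 0 were at 0 in all libraries, and the 1 that reached 1 FPKM in every library was the lysosomal protein gene CD68. The 12 summed to 17.4 to 20.7 FPKM with rhCCL20 and 12.8 to 22.3 FPKM in vehicle. Of these, LYZ was lower in vehicle replicates 2 and 3 (0.692 and 0.469 FPKM) than in the other libraries (2.92 to 5.24 FPKM). S100A9 was lower there too (0.220 and 0.143 FPKM, against 2.15 to 3.41 FPKM). Neither passed in limma (adjusted p = 0.937 for both, unadjusted p = 0.0765 for LYZ and 0.0440 for S100A9). Of 11 erythroid markers 6 were listed at 0 in all libraries, among them HBD, HBG1, HBG2, ALAS2 and EPB42, KLF1 alone reached 1 FPKM in every library, and the sum was 5.43 to 6.18 FPKM with rhCCL20 and 6.97 to 8.08 FPKM in vehicle. The part of these markers in the iron results was not tested. In bulk RNA, fewer cells of a type and less RNA per cell cannot be told apart.

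FTH1, the heavy chain that oxidises iron as it enters the shell, ranked first of all genes in each of the 6 libraries. It was at 4093, 4046 and 5289 FPKM in rhCCL20 replicates 1 to 3, against 3995, 4091 and 4106 FPKM in vehicle replicates 1 to 3. Replicate 3 with rhCCL20 stood above the other 5 libraries, which lay close together, and the groups overlapped. The mean was 4476 ± 704 FPKM with rhCCL20 and 4064 ± 60.1 FPKM in vehicle (SD, n = 3 each), or a log2 fold change of 0.13 on the scale of log2(FPKM + 1). Without rhCCL20 replicate 3 the rhCCL20 mean was 4069 FPKM and the log2 fold change 0.00. The next genes by mean level over the 6 libraries were the ribosomal protein genes RPLP1 (2516 FPKM) and RPS2 (2025 FPKM), the glycolytic enzyme gene GAPDH (1762 FPKM) and the actin gene ACTB (1761 FPKM), against 4270 FPKM for FTH1. FTH1 alone made up 1.47% ± 0.24 of the summed FPKM with rhCCL20 and 1.33% ± 0.020 in vehicle (SD, n = 3 each).

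FTH1 lies on chromosome 11 from 61959718 to 61967660 on the minus strand. In GENCODE 916 of its exon bases overlap exons of BEST1, a channel gene on the other strand, and strand-specific counting is not given in the sources used here. BEST1 averaged 0.158 FPKM over the 6 libraries. The annotation also holds 25 FTH1 and 16 FTL pseudogenes, with which fragments could be shared. Of these, 1 symbol is listed in the data, FTH1P18, at 0 in all libraries.

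The light chain FTL, which favours the mineral core, did not follow FTH1. It was at 775, 795 and 697 FPKM in rhCCL20 replicates 1 to 3, against 751, 780 and 743 FPKM in vehicle replicates 1 to 3. Here rhCCL20 replicate 3 was the lowest and rhCCL20 replicate 2 the highest of the 6, so the vehicle values lay within the rhCCL20 range. The mean was 755 ± 51.8 FPKM with rhCCL20 and 758 ± 19.3 FPKM in vehicle (SD, n = 3 each), and limma gave a log2 fold change of -0.01 (95% limits -0.13 and 0.11, adjusted p = 0.989). Without rhCCL20 replicate 3 it was 0.05 (adjusted p = 0.879 in limma), and it also turned positive without vehicle replicate 2 (0.01) and with quantile normalization (0.01).

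Heavy chain transcripts outnumbered light chain transcripts per length in every library. The ratio of FTH1 to FTL was 5.28, 5.09 and 7.59 in rhCCL20 replicates 1 to 3, against 5.32, 5.25 and 5.53 in vehicle replicates 1 to 3. In 5 libraries the ratio thus lay between 5.09 and 5.53, and rhCCL20 replicate 3 was above that range, with FTH1 higher and FTL lower there. Together the subunits made up 1.71% ± 0.23 of the summed FPKM with rhCCL20 and 1.58% ± 0.017 in vehicle (SD, n = 3 each). The mitochondrial ferritin gene FTMT was listed at 0 in all libraries.

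**Figure D1:**
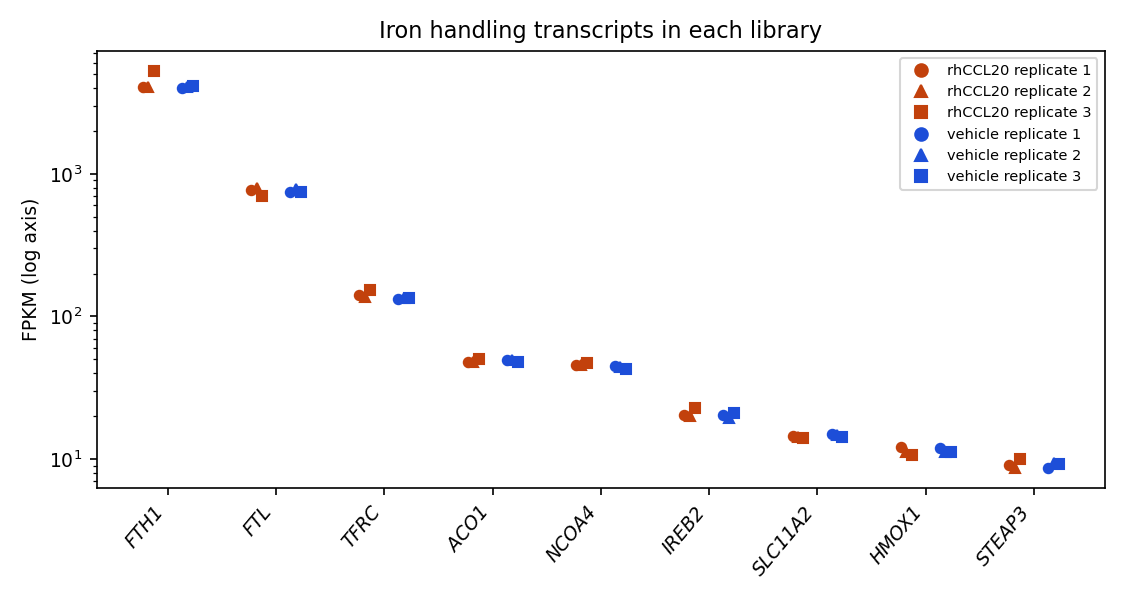
FPKM on a log axis of the 9 members above 0, with a point for each library, rhCCL20 in orange and vehicle in blue. FTH1 lies between 3995 and 4106 FPKM in 5 libraries and at 5289 FPKM in rhCCL20 replicate 3, while STEAP3 lies near 9 FPKM.

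NCOA4, which binds FTH1 chains and carries ferritin to lysosomes, was at 45.9, 45.9 and 47.0 FPKM in rhCCL20 replicates 1 to 3, against 44.8, 44.1 and 42.6 FPKM in vehicle replicates 1 to 3. All 3 rhCCL20 libraries lay above all 3 vehicle libraries. The mean was 46.2 ± 0.64 FPKM with rhCCL20 and 43.8 ± 1.15 FPKM in vehicle (SD, n = 3 each), or a log2 fold change of 0.08 (SE 0.036, 95% limits -0.01 and 0.16). In limma this did not pass (unadjusted p = 0.0653, adjusted p = 0.937). Groups that do not overlap were found for 1130 of 10263 genes (11.0%), with rhCCL20 higher for 706 (6.88%) and lower for 424 (4.13%). Among the 9 members above 0, FTH1 included, they were found for 2, NCOA4 and TFRC, both higher with rhCCL20.

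TFRC, the receptor for iron-loaded transferrin, was at 141, 136 and 154 FPKM in rhCCL20 replicates 1 to 3, against 132, 136 and 136 FPKM in vehicle replicates 1 to 3. The lowest rhCCL20 value was 136.3 FPKM and the highest vehicle value 135.6 FPKM, so the groups were apart by less than their spread. The mean was 144 ± 9.37 FPKM with rhCCL20 and 134 ± 2.03 FPKM in vehicle (SD, n = 3 each), or a log2 fold change of 0.09 (SE 0.047, 95% limits -0.01 and 0.20). In limma this did not pass (unadjusted p = 0.0756, adjusted p = 0.937). Without rhCCL20 replicate 3 it was 0.04 (adjusted p = 0.881 in limma). When values were rescaled to TPM, with or without the ferritin genes in the total, or quantile normalized, the TFRC groups overlapped and NCOA4 was the 1 member left apart.

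The other uptake members were lower in level. SLC11A2, the ferrous iron transporter DMT1, was at 14.6, 14.2 and 14.0 FPKM in rhCCL20 replicates 1 to 3, against 15.0, 14.8 and 14.3 FPKM in vehicle replicates 1 to 3. The groups overlapped, with rhCCL20 replicate 3 lowest and vehicle replicate 1 highest, with a log2 fold change of -0.04 (95% limits -0.13 and 0.06, limma adjusted p = 0.937). STEAP3, the endosomal reductase described for erythroid cells, was at 9.08, 8.65 and 9.94 FPKM in rhCCL20 replicates 1 to 3, against 8.62, 9.39 and 9.18 FPKM in vehicle replicates 1 to 3. It was highest in rhCCL20 replicate 3, with overlapping groups and a log2 fold change of 0.02 (95% limits -0.11 and 0.15, limma adjusted p = 0.976). That value was -0.03 without rhCCL20 replicate 3 and -0.01 without vehicle replicate 1. GENCODE places an antisense RNA, STEAP3-AS1, over 500 exon bases of STEAP3 on the other strand.

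Among the STEAP reductases STEAP4, not STEAP3, was the abundant transcript. STEAP4 averaged 653 ± 30.0 FPKM with rhCCL20 and 622 ± 8.04 FPKM in vehicle (SD, n = 3 each), or 70.9 ± 2.9 times STEAP3 with rhCCL20 and 68.7 ± 3.7 times in vehicle. Its groups did not overlap, and the log2 fold change of 0.07 did not pass in limma (95% limits -0.03 and 0.17, adjusted p = 0.937). Without rhCCL20 replicate 3 it was 0.03. STEAP1 averaged 2.95 FPKM with rhCCL20 and 2.99 FPKM in vehicle, and STEAP2 did not exceed 0.024 FPKM. TFR2, the second transferrin receptor, averaged 1.98 ± 0.043 FPKM with rhCCL20 and 2.08 ± 0.026 FPKM in vehicle (SD, n = 3 each), against which TFRC was 72.4 ± 3.4 times as high with rhCCL20 and 64.7 ± 0.43 times in vehicle. This ratio was not tested. The groups of TFR2 were apart, and its log2 fold change of -0.04 did not pass in limma (95% limits -0.17 and 0.08, adjusted p = 0.941). The zinc and iron transporters SLC39A14 and SLC39A8 averaged 16.4 and 6.58 FPKM over the 6 libraries. Transferrin itself (TF) was listed at 0 in 4 libraries, all rhCCL20 libraries among them, and reached 0.020 FPKM at most. STEAP1, STEAP2, TFR2, TF and both SLC39A genes are list members named here once their values were known.

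Transcripts of iron export were scarce or listed at 0. SLC40A1, the exporter ferroportin, was listed at 0 in all 6 libraries, so no fold change can be given. The ferroxidase HEPH and the ferroportin-binding hormone HAMP were also listed at 0 in all libraries, and the ferroxidase CP averaged 0.024 FPKM with rhCCL20 and 0.032 FPKM in vehicle. Of 10 genes of export and its regulation 2 were tested, HFE, which interacts with TFRC, and the heme exporter FLVCR1. HFE averaged 4.86 ± 0.22 FPKM with rhCCL20 and 4.63 ± 0.090 FPKM in vehicle, and FLVCR1 averaged 5.01 ± 0.81 FPKM with rhCCL20 and 4.63 ± 0.23 FPKM in vehicle (SD, n = 3 each). Neither passed in limma (adjusted p = 0.937 for both), and for FLVCR1 the log2 fold change was 0.09, or -0.02 without rhCCL20 replicate 3.

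**Figure D2:**
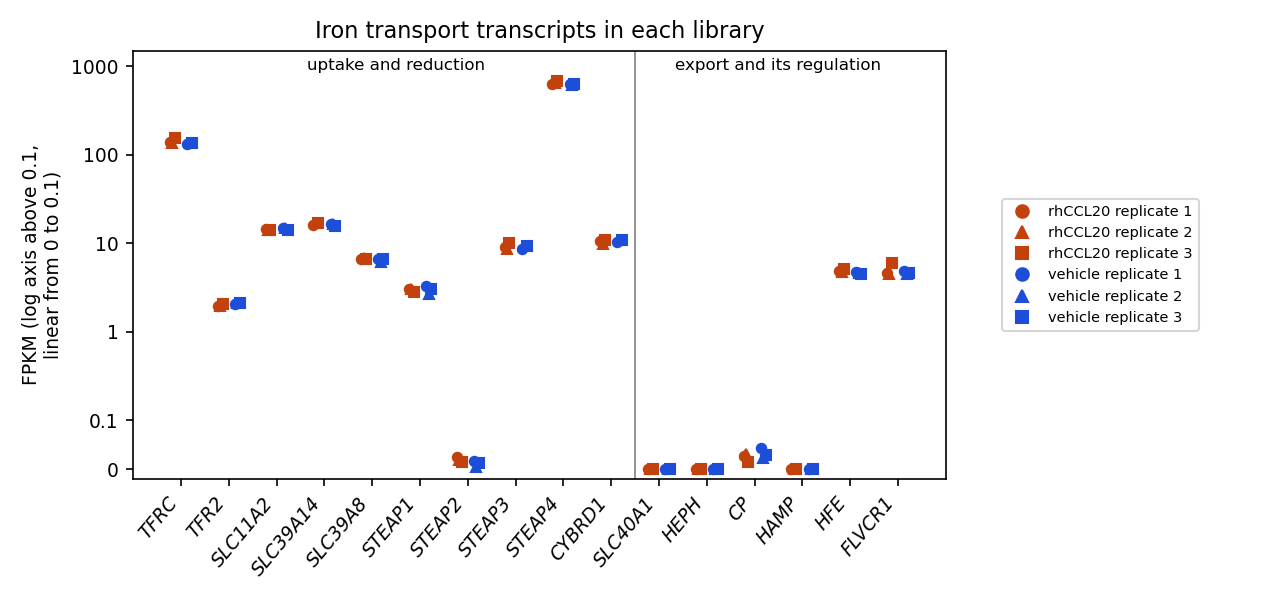
FPKM of genes for iron uptake, reduction and export, with a point for each library, rhCCL20 in orange and vehicle in blue, on an axis that is logarithmic above 0.1 and linear from 0 to 0.1. STEAP4 and TFRC stand highest, and SLC40A1, HEPH and HAMP lie at 0 in all 6 libraries.

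Both iron regulatory protein genes were expressed. ACO1, which encodes IRP1 and acts as the cytosolic aconitase when it holds an iron-sulfur cluster, was at 48.0, 47.6 and 50.2 FPKM in rhCCL20 replicates 1 to 3, against 49.1, 49.8 and 47.6 FPKM in vehicle replicates 1 to 3. The groups overlapped, with a log2 fold change of -0.01 (95% limits -0.09 and 0.08, limma adjusted p = 0.989). It was positive, at up to 0.01, without rhCCL20 replicate 1, rhCCL20 replicate 2 or vehicle replicate 2. IREB2, which encodes IRP2, a protein destroyed when iron is ample, was at 20.3, 20.0 and 22.8 FPKM in rhCCL20 replicates 1 to 3, against 20.4, 19.5 and 20.9 FPKM in vehicle replicates 1 to 3. Replicate 3 with rhCCL20 was highest, the groups overlapped, and rhCCL20 over vehicle gave 0.05 on the log2 scale (95% limits -0.07 and 0.17, limma adjusted p = 0.937), or -0.01 without that library. The level of ACO1 was 2.32 ± 0.10 times that of IREB2 with rhCCL20 and 2.41 ± 0.14 times in vehicle (SD, n = 3 each), a difference with p = 0.4 in a two-sided exact permutation test, where 0.1 is the smallest p for 3 against 3. FBXL5, the iron sensor that marks IRP2 for destruction, averaged 7.49 ± 0.36 FPKM with rhCCL20 and 7.99 ± 0.23 FPKM in vehicle (SD, n = 3 each), with a log2 fold change of -0.08 (limma adjusted p = 0.937).

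HMOX1, the inducible heme oxygenase that frees iron from heme, was at 12.1, 11.3 and 10.6 FPKM in rhCCL20 replicates 1 to 3, against 11.9, 11.1 and 11.2 FPKM in vehicle replicates 1 to 3. It was highest in rhCCL20 replicate 1 and lowest in rhCCL20 replicate 3, so the vehicle values lay within the rhCCL20 range. It had a log2 fold change of -0.01 (95% limits -0.14 and 0.11, limma adjusted p = 0.986), or 0.03 without rhCCL20 replicate 3 and 0.02 without vehicle replicate 1. Its constitutive relative HMOX2, a list member named once its values were known, was at a like level, with 11.5 to 12.6 FPKM over the 6 libraries.

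For the contrast of rhCCL20 with vehicle, 0 of the 8 members tested passed in limma, where 1 of 10263 genes did (0.00974%). At an unadjusted p under 0.05 the count was 0 of 8 members, against 485 genes (4.73%), 2.57% higher and 2.15% lower with rhCCL20. Over the alternatives the unadjusted p of TFRC was 0.0223 without rhCCL20 replicate 2 and that of NCOA4 0.0319 with no filter on low values (limma adjusted p = 0.716 for TFRC and 0.910 for NCOA4). Of the 8, 4 were higher and 4 lower, and their median log2 fold change was 0.01, as it was over all genes tested. Both 95% limits of the fold of FPKM + 1 were under 1.25-fold for 8 of the 8 members and for 9750 of 10263 genes. The widest limits were those of TFRC at 1.15 upward and of HMOX1 at 0.909 downward. These limits are for each gene alone, with no adjustment over the 10263 genes, and are not limits of detection. They do not show that a member was unchanged. The size of change that would pass with 3 libraries a group is not given here.

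**Figure D3:**
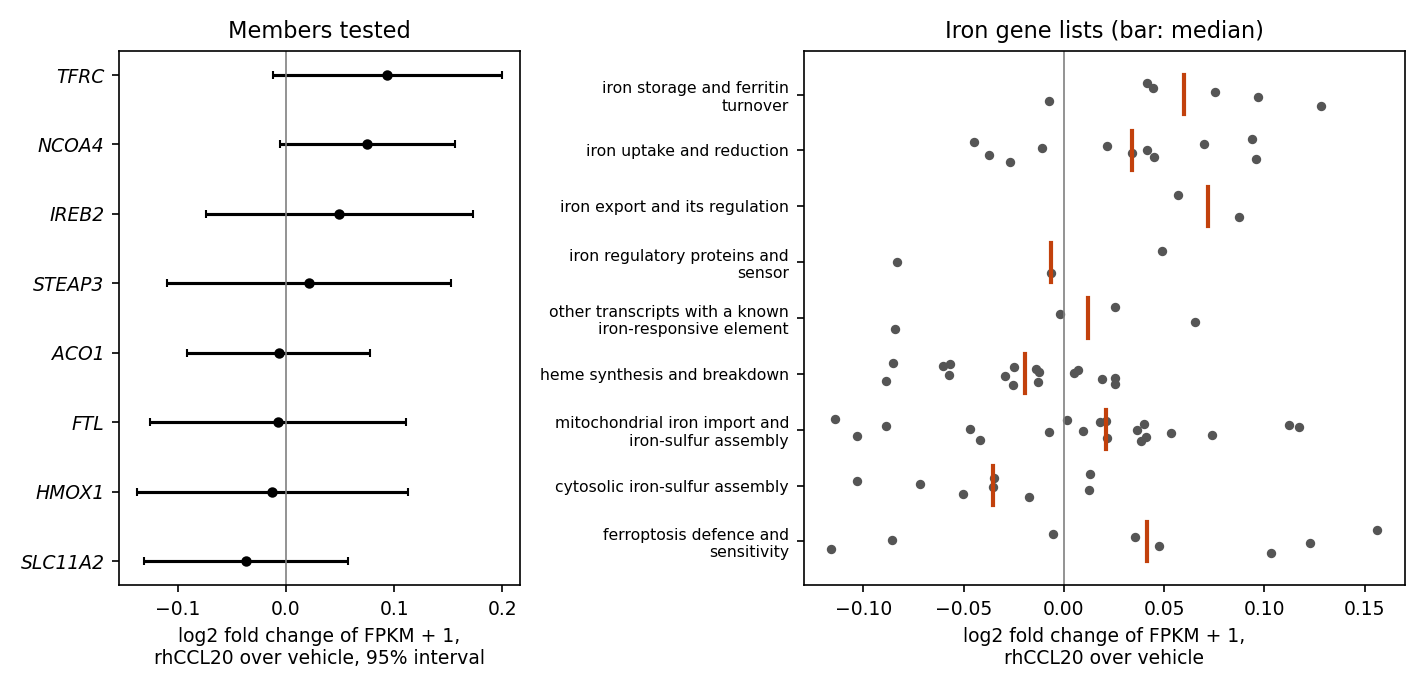
Left, log2 fold change of FPKM + 1, rhCCL20 over vehicle, with limma 95% intervals for the 8 members tested; right, the same fold change for each tested gene of 9 iron gene lists, FTH1 included without a test, with the list median as a bar. All intervals on the left include 0, and the list medians lie between -0.04 and 0.07.

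The 9 lists of the iron network held 82 genes besides the members, of which 68 were tested, and 0 passed in limma. Of the 68, 37 were higher and 31 lower with rhCCL20, against 5936 higher and 4327 lower over all genes tested. An unadjusted p under 0.05 was found for 3 of the 68, against 4.73% of all genes, and groups that did not overlap for 8, against 11.0%. The median log2 fold change of the 68 was 0.01, and -0.01 without rhCCL20 replicate 3. The counts and medians of single lists below include the members in them, other than FTH1. In the storage list NCOA4, PCBP1, PCBP2 and HERC2 were higher and FTL lower, with a median of 0.04, or -0.01 without rhCCL20 replicate 3. The iron chaperone PCBP1, its most abundant gene besides ferritin, averaged 275 ± 20.1 FPKM with rhCCL20 and 267 ± 1.75 FPKM in vehicle (SD, n = 3 each), and HERC2, a ubiquitin ligase that acts on NCOA4, averaged 6.66 ± 1.09 FPKM with rhCCL20 and 6.13 ± 0.62 FPKM in vehicle (SD, n = 3 each). Both were negative in log2 fold change, at -0.01, without rhCCL20 replicate 3. The uptake list held 11 tested genes, 7 higher and 4 lower, with a median of 0.03. LRP1, a receptor for hemopexin with bound heme, had a log2 fold change of 0.10 and one of -0.01 without rhCCL20 replicate 3.

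Of 16 tested genes of heme synthesis and breakdown, 5 were higher and 11 lower with rhCCL20, with a median log2 fold change of -0.02 and 0 past the threshold. The biliverdin reductase BLVRA averaged 16.9 ± 0.73 FPKM with rhCCL20 and 18.0 ± 1.14 FPKM in vehicle, and the heme synthesis enzyme UROD averaged 44.3 ± 1.16 FPKM with rhCCL20 and 46.1 ± 1.26 FPKM in vehicle (SD, n = 3 each, limma adjusted p = 0.937 for both). BLVRB, the other biliverdin reductase, was the most abundant of the list at 73.7 FPKM over the 6 libraries.

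Iron-sulfur cluster genes did not pass either. In the mitochondrial list 13 of 19 were higher and 6 lower, with a median of 0.02. The assembly factor ISCA1 had the smallest p of the iron lists. It was at 44.7, 45.5 and 45.0 FPKM in rhCCL20 replicates 1 to 3, against 42.8, 40.2 and 41.4 FPKM in vehicle replicates 1 to 3, so the groups did not overlap. Its log2 fold change came to 0.12 (95% limits 0.03 and 0.20, limma unadjusted p = 0.0102, adjusted p = 0.937). The ferredoxin gene FDX2, listed as FDX1L, averaged 14.2 ± 1.02 FPKM with rhCCL20 and 15.3 ± 0.25 FPKM in vehicle (SD, n = 3 each), and the chaperone HSPA9 averaged 173 FPKM over the 6 libraries. In the cytosolic list 2 of 8 were higher and 6 lower, with a median of -0.04, NDOR1 at -0.10 and CIAPIN1 at -0.05, which pass electrons to that machinery, and the targeting factor FAM96B at 0.01, or -0.04 without rhCCL20 replicate 2 and -0.02 without vehicle replicate 1. The median of the list was -0.01 without rhCCL20 replicate 1 and -0.02 without vehicle replicate 2, and -0.05 without vehicle replicate 1, and CIAPIN1 was at -0.09 without rhCCL20 replicate 2 and -0.02 without rhCCL20 replicate 3.

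Ferroptosis is a form of cell death driven by iron-dependent oxidation of lipids. Of 8 tested genes 5 were higher and 3 lower, with a median of 0.04. ACSL4, which loads the lipids that oxidise, averaged 36.7 ± 1.26 FPKM with rhCCL20 and 34.0 ± 0.73 FPKM in vehicle, and AIFM2, a suppressor that regenerates a lipid-soluble antioxidant, averaged 13.9 ± 0.73 FPKM with rhCCL20 and 15.1 ± 0.37 FPKM in vehicle (SD, n = 3 each). Their groups did not overlap, with unadjusted p of 0.0265 for ACSL4 and 0.0381 for AIFM2 and a limma adjusted p of 0.937 for both. Over all genes tested 11.0% had groups apart and 4.73% an unadjusted p under 0.05. Of the rest of the list, GCLM, SLC7A11, GCLC and LPCAT3 were higher and GPX4 and SLC3A2 lower. All of these but SLC3A2 are named once their values were known. The groups of GCLM were also apart (log2 fold change 0.12, limma unadjusted p = 0.0578, adjusted p = 0.937). SLC7A11 had the largest log2 fold change of the list, 0.16, with overlapping groups. SLC3A2, a subunit of the cystine carrier, was the most abundant at 160.2 FPKM, while SLC7A11, the other subunit, averaged 1.16 FPKM.

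Other transcripts described with an iron-responsive element gave 2 higher and 2 lower of 4 tested, with a median of 0.01, or -0.04 without rhCCL20 replicate 3. SDHB, a respiratory chain subunit whose element is known from Drosophila, averaged 90.8 ± 0.038 FPKM with rhCCL20 and 89.2 ± 3.30 FPKM in vehicle (SD, n = 3 each). The kinase gene CDC42BPA had a log2 fold change of 0.07, or -0.03 without rhCCL20 replicate 3. Besides the members, 13 genes held the hairpin in a UTR, of which 6 were tested, 4 higher and 2 lower, with 0 past the threshold in limma and a median of 0.01.

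The library of rhCCL20 replicate 3 held the highest or lowest value of each of the 9 members above 0. It was highest for 6 (FTH1, TFRC, IREB2, ACO1, NCOA4 and STEAP3) and lowest for 3 (FTL, HMOX1 and SLC11A2). Over all genes tested that library was highest for 37.1% and lowest for 18.1%, or at either end for 55.2%. The other libraries were highest for 9.91% to 16.5% and lowest for 13.9% to 20.0%, with rhCCL20 replicate 2 at 20.0%. Relative to the mean of the other 5 libraries, FTH1 was at 1.30, TFRC at 1.13, IREB2 at 1.13, STEAP3 at 1.11, NCOA4 at 1.05 and ACO1 at 1.04, and SLC11A2 was at 0.961, HMOX1 at 0.920 and FTL at 0.906. Of 507 genes that averaged 100 FPKM or more, FTH1 had the highest of these ratios. The next of the 507 were FSCN1, a gene of actin bundles, at 1.25, and the translation factor gene EIF1, also at 1.25. FTH1 was chosen for its level and its value in this library, so this rank is a description only. The place of FTH1 among the 9 members at an end and the 6 highest was likewise set by that choice. Some genes of lower level had higher ratios, such as PDZD8 at 1.33 with a mean of 6.94 FPKM. Percentile 95 of this ratio was 1.23 over all genes tested. Among those with the longest transcripts, a class described below, it was 1.31, above FTH1.

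**Figure D4:**
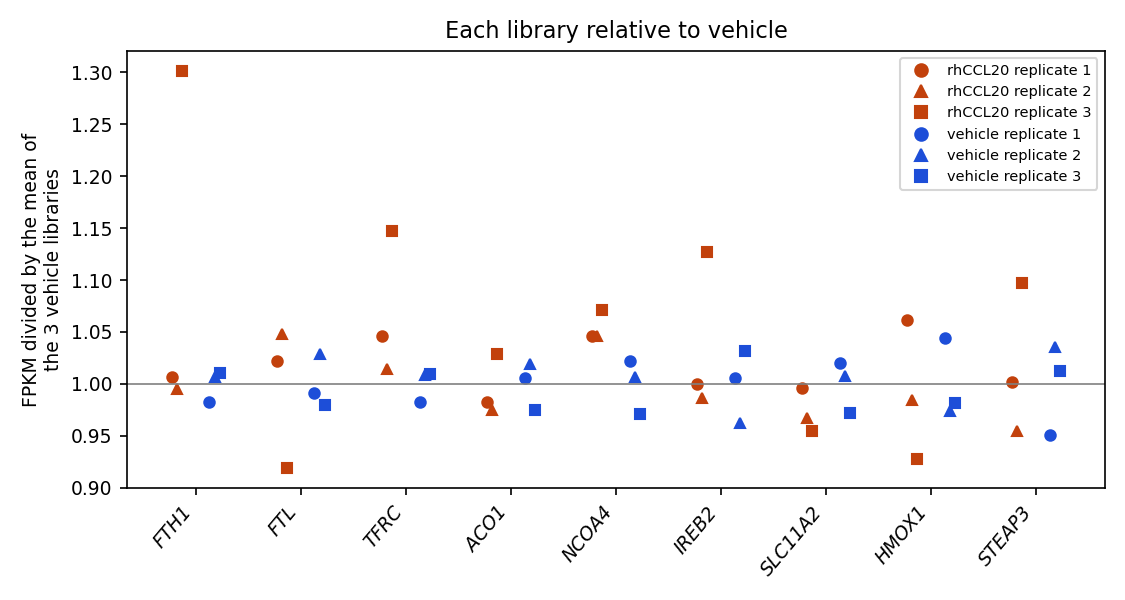
FPKM of each library divided by the mean of the 3 vehicle libraries for the 9 members above 0, with rhCCL20 in orange and vehicle in blue, and replicates 1 to 3 as circles, triangles and squares. The orange squares of rhCCL20 replicate 3 lie at an end of the range for each member, above the rest for FTH1 and below it for FTL.

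Transcript length moved with this ratio across genes. Tested genes were put in 4 classes of like size by the longest annotated transcript, known for 99.2% of them. The median ratio of rhCCL20 replicate 3 to the other libraries was 0.965 in the class of shortest transcripts, then 1.01 and 1.04, and 1.10 in the class of longest. FTL (878 bases), FTH1 (1229 bases) and HMOX1 (1822 bases) are in the shortest class. The middle 90% of that class lay between 0.818 and 1.16, a range that held FTL and HMOX1, with FTH1 above it. IREB2 (6354 bases) and ACO1 (7466 bases) are in the longest class, whose middle 90%, 0.937 to 1.31, held both. TFRC (5111 bases), NCOA4, SLC11A2 and STEAP3 are in the class before it. The middle 90% there, 0.898 to 1.21, held all of these. By GC content the classes had medians of 1.01 to 1.03. The part of transcript length in these values was not tested.

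**Figure D5:**
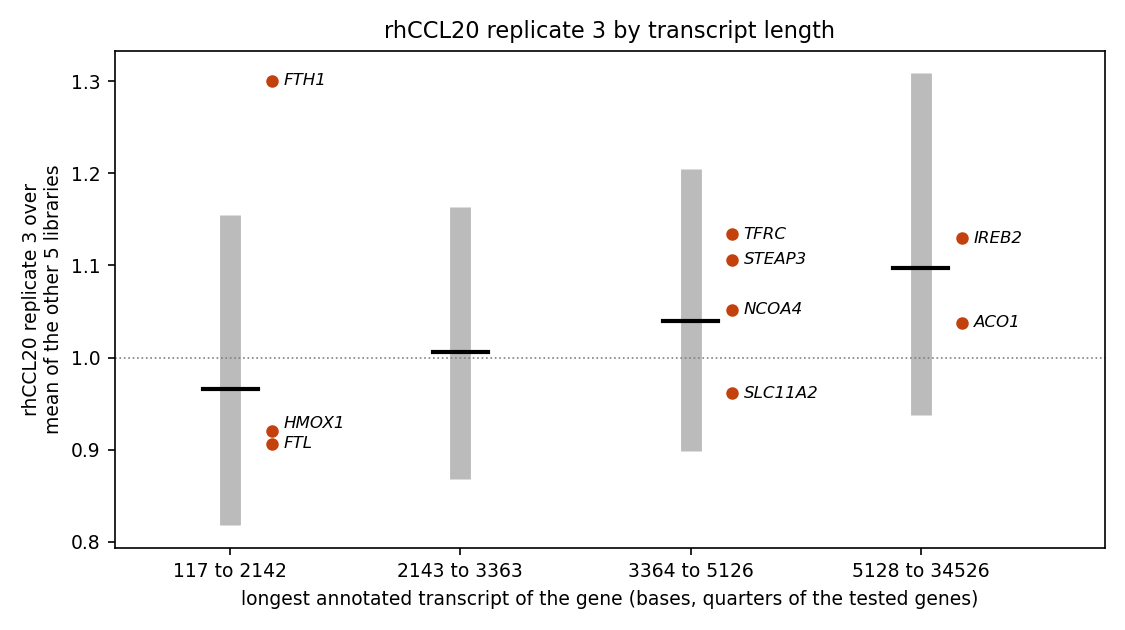
FPKM in rhCCL20 replicate 3 over the mean of the other 5 libraries, by class of transcript length in bases. Grey bars span the percentiles 5 to 95 of the tested genes, black lines are medians, and orange points are members; FTH1 at 1.30 lies above the bar of its class and FTL at 0.906 within it.

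Likeness of pattern over the 6 libraries was described with Pearson's r of log2(FPKM + 1) among 6816 genes that averaged 5 FPKM or more. These are the extremes of a long ranking over 6 points and carry no test. For FTH1 the most alike were YWHAB, DNASE2, NFIC, CACTIN and PDZD8, with r from 0.994 to 0.999. Without rhCCL20 replicate 3 these r lay between 0.071 and 0.855. The most opposite to FTH1 were NOL12, WDR45 and RPL27, with r of -0.990 to -0.980, and of -0.059 to 0.711 without that library. YWHAB, which encodes a signalling adaptor of the 14-3-3 family, was at 83.2, 82.4 and 104 FPKM in rhCCL20 replicates 1 to 3, against 81.7, 82.5 and 82.7 FPKM in vehicle replicates 1 to 3. RPL27, a ribosomal protein gene, was at 601, 591 and 438 FPKM in rhCCL20 replicates 1 to 3, against 573, 587 and 587 FPKM in vehicle replicates 1 to 3.

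For FTL, the genes picked over 6 libraries kept an r of like size over the 5 without rhCCL20 replicate 3. Those 5 libraries were part of the choice, so this is no separate check of a shared pattern. The genes most alike to FTL were COX4I1, PON2, GADD45GIP1, EBP and CYB561D2, with r from 0.983 to 0.995, and from 0.938 to 0.995 without rhCCL20 replicate 3. Its most opposite were KDM5C, TAF1 and MYO1E, with r of -0.999 to -0.997, and of -0.997 to -0.989 without that library. COX4I1, a subunit of cytochrome c oxidase, was at 73.7, 75.0 and 66.4 FPKM in rhCCL20 replicates 1 to 3, against 71.9, 74.4 and 71.2 FPKM in vehicle replicates 1 to 3. Between the members, FTH1 and FTL had an r of -0.846 over 6 libraries and of 0.029 over 5. The values were 0.952 and 0.674 for FTH1 and TFRC, and -0.944 and -0.779 for FTL and IREB2. Some other pairs kept their r over 5 libraries and some did not. It was 0.827 and 0.860 for FTH1 and STEAP3. By contrast it was 0.908 and 0.044 for FTH1 and IREB2, and -0.715 and 0.419 for FTL and TFRC. The remaining pairs are not given.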

How the data were processed

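Total RNA of the cells was extracted with Trizol and made into libraries with an Illumina TruSeq RNA kit, per the labels' protocols. Trimmomatic, HISAT2, Cufflinks, HTSeq and the build GRCh38 appear, without roles, per the submitters' processing notes. The authors deposited FPKM per gene symbol for each library, per the file headers. For strand, filters and gene models, the sources used here say nothing, and without counts no counting interval can be given.

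The 10263 genes that reached 1 FPKM in 3 or more libraries entered limma 3.58.1 (R 4.3.3, eBayes with a trend) as log2(FPKM + 1), in a model of group alone, with Benjamini-Hochberg adjustment over all of them at 0.05. That scale understates changes of low genes. The procedure was also run on simulated data, but the outcome is not given here and no conclusion is drawn from it. Hairpins, positions and transcript lengths are from GENCODE 29 on GRCh38, whose gene models may differ from the authors'.

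Members and gene lists were chosen with earlier results of these data known. Named beyond the members are, of each list, the 2 genes with the smallest p and the most abundant, the 5 most abundant genes of all, and the genes most alike or opposite in pattern to FTH1 and FTL. Alternatives were other pseudocounts, filters, scalings and eBayes settings, a block for the replicate number, and each library left out in turn. Some genes of the lists are not reported here.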

Additional observations from a re-analysis of the deposited data

How the results depend on the processing

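In each alternative 0 members and 0 genes of the iron lists passed in limma. The count over all genes, 1, was 0 with no filter (861 genes at an unadjusted p under 0.05) and 0 with a mean of at least 5 FPKM required (318 at an unadjusted p under 0.05), and 1 to 3 with a library left out, the 3 being without vehicle replicate 1. The 2 members with groups apart became 1 with TPM, with TPM without FTH1 and FTL in the total, and with quantile normalization, and 2 to 3 with a library left out, where SLC11A2 joined with lower values for rhCCL20 without rhCCL20 replicate 1 or vehicle replicate 3. The median log2 fold change of the 8 members tested, 0.0075, was -0.0039 with median-of-ratios scaling and lay between 0.0043 and 0.035 over the left-out libraries. That of the uptake list was 0.0116 with no filter and that of the mitochondrial list 0.0029 with quantile normalization. Over the left-out libraries the medians spanned -0.0075 to 0.0809 for the storage list without FTH1, 0.0034 to 0.1178 for the export list, -0.0546 to -0.0114 for the cytosolic list, 0.0277 to 0.0754 for the ferroptosis list, -0.0379 to 0.0234 for the other element-bearing transcripts -0.0067 to 0.0164 for all lists together and -0.0071 to 0.0141 for these without the members, which were at -0.0017 with median-of-ratios scaling and -0.0022 with quantile normalization. With the filter at 5 FPKM the export list held no tested gene.

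Of 506 fold changes of the 30 tested genes named, under alternatives, 484 kept their direction and 22 turned, none of them past the threshold in any setting, and 10 of the 22 came without rhCCL20 replicate 3. FTL turned to 0.0137 with quantile normalization. Over the left-out libraries the log2 fold change spanned -0.045 to 0.0498 for FTL, -0.0301 to 0.0081 for ACO1, -0.0087 to 0.0827 for IREB2, -0.059 to 0.0302 for HMOX1, -0.0282 to 0.062 for STEAP3, -0.0075 to 0.198 for HERC2, -0.0148 to 0.0759 for PCBP1, -0.0119 to 0.1818 for LRP1, -0.021 to 0.1549 for FLVCR1, -0.0333 to 0.149 for CDC42BPA, -0.0163 to 0.0135 for SLC3A2, -0.0192 to 0.0728 for BLVRB and -0.0434 to 0.0682 for FAM96B. For STEAP4 it spanned 0.0328 to 0.0952 and for CIAPIN1 -0.0915 to -0.024. For FTH1, which was not tested, it spanned 0.002 to 0.1953, and it was 0.0 with quantile normalization, which gives the gene that ranks first in each library the same value in all. With the replicate number as a block 1 gene and 0 members passed, and the median of the 8 members tested was 0.0075. Deviations of same-numbered libraries correlated at -0.101, 0.035 and 0.097, within the -0.119 to 0.131 of libraries with different numbers. This cannot exclude pairing, since the deviations of 3 libraries from their mean depend on each other. With the block 548 genes had an unadjusted p under 0.05 in limma, against 485 without it. Beyond the samples and genes each setting removes, the cause of these shifts was not tested.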
